A study of Rattus norvegicus with 252 samples.

Results

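Gene expression in the cerebral cortex of wild type (WT) Long Evans rats was compared between 6 and 2 months of age. The members were the 10 libraries titled as WT cortex at 6 months and the 10 at 2 months, 20 of the 252 samples of the series. Each age had 5 females and 5 males, every library came from the right cortex of a separate animal, and all 20 belonged to batch 1. The series also held rats heterozygous for Q130, a knock-in allele used to model Huntington disease, and the striatum, hippocampus and cerebellum of the same animals. Libraries of WT cortex at 12 months belonged to batch 2, so age and batch cannot be told apart beyond 6 months. The labels give no treatment for any group, and the WT animals carried no knock-in allele.

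The cortex is a layered sheet of excitatory and inhibitory neurons with astrocytes, oligodendrocytes, microglia and blood vessels among them, and RNA of a whole piece of it mixes all of these. In the young adult rat the cortex still matures slowly, and its oligodendrocytes go on wrapping axons in myelin. The files name genes by Ensembl rat identifiers, and 0 of 32883 were paired with a symbol in the reference used here. Genes are therefore described as groups chosen in other libraries, and 4 are given by identifier.

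Total counts ran from 31.9 to 46.4 M per library, with medians of 38.8 M at 2 months and 37.7 M at 6 months, and 17961 to 18675 genes had a count. Each library was correlated with the other cortical libraries on log2 CPM, counts scaled to library size. The median correlation was 0.982 to 0.987 in 19 of the 20 libraries and 0.918 in WT cortex 6 months male 4, the only WT cortical library of these ages under the minimum of 0.97. The other tissues of that animal were not low, at 0.985 in hippocampus, 0.983 in striatum and 0.983 in cerebellum. Its median correlation with libraries of the other tissues was lower too, at 0.899 with hippocampus against 0.955 to 0.963 in the other 19, 0.890 with striatum against 0.928 to 0.937, and 0.834 with cerebellum against 0.885 to 0.895. The labelled sexes were checked with 5 genes that were at least 16-fold higher in male than in female Q130 cortex. Their summed level was at most 1.30 CPM in the 10 WT females and at least 198 CPM in the 10 WT males. Results are given with all 20 libraries and with the 19 that remain without male 4.

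Male 4 differed from the other 9 libraries of 6 months in most of the genes compared. Of 15509 genes compared, it lay above the range of the other 9 in 6269 and below it in 5844. Each of the 9, set against the other 8, lay outside their range in 2012 to 5733 genes. The SD of its log2 deviations from their mean was 1.08, against 0.287 to 0.374 for each of the 9 set against the other 8. The deviation followed gene length, which was estimated from the ratio of counts to TPM, a value per length. In 5 equal bins from the shortest to the longest genes, the median deviation was 0.81, 0.49, 0.17, -0.09 and -0.61 log2 units. What produced this pattern was not tested.

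**Figure D1:**
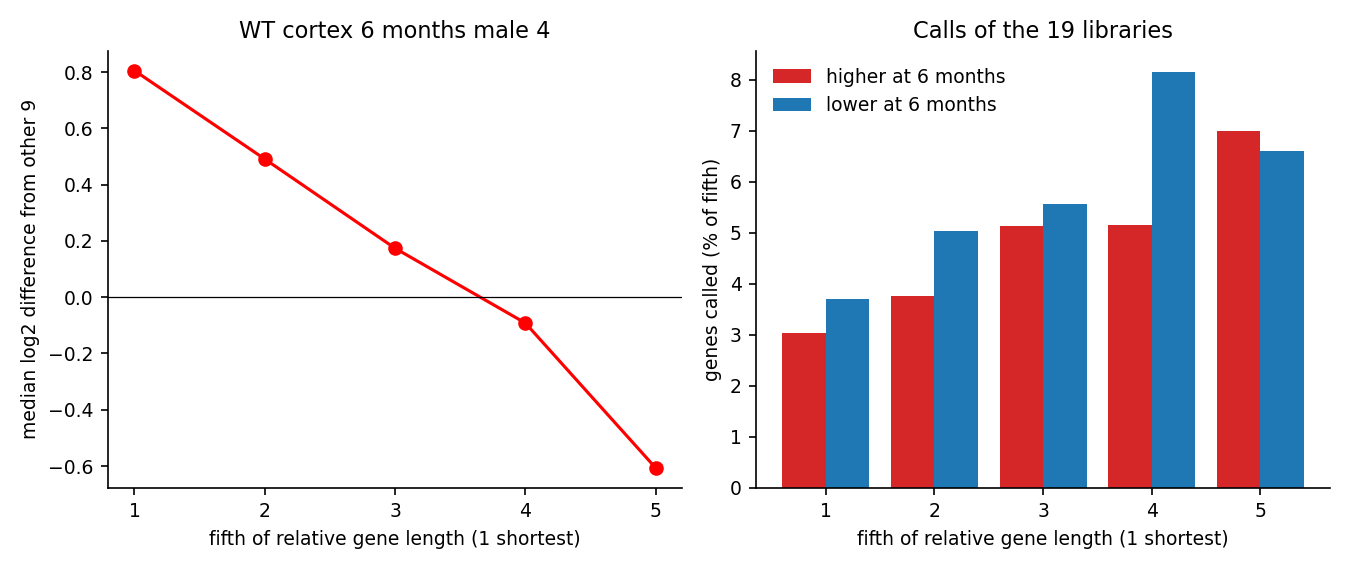
Left, median log2 difference of WT cortex 6 months male 4 from the other 9 libraries of 6 months in 5 equal bins of relative gene length, running from 0.81 in the shortest to -0.61 in the longest genes. Right, percent of each bin called higher (red bars) or lower (blue bars) at 6 months in the 19 libraries.

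With the 19 libraries, 1680 of 15810 tested genes differed between the ages (10.6%) at an adjusted p under 0.05 in edgeR's quasi-likelihood test with sex as a covariate. At 6 months 761 genes were higher (4.81% of those tested) and 919 lower (5.81%). The called genes had a median log2 difference of 0.22, taken without its sign. The difference exceeded 1.5-fold in 171 genes, of which 82 were higher and 89 lower. With all 20 libraries 557 of 15756 genes were called (3.54%), 263 higher and 294 lower. Of these, 556 were also called without male 4 and all 556 kept their direction. The median standard error of a log2 fold change was 0.10 with male 4 and 0.058 without it.

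**Figure D2:**
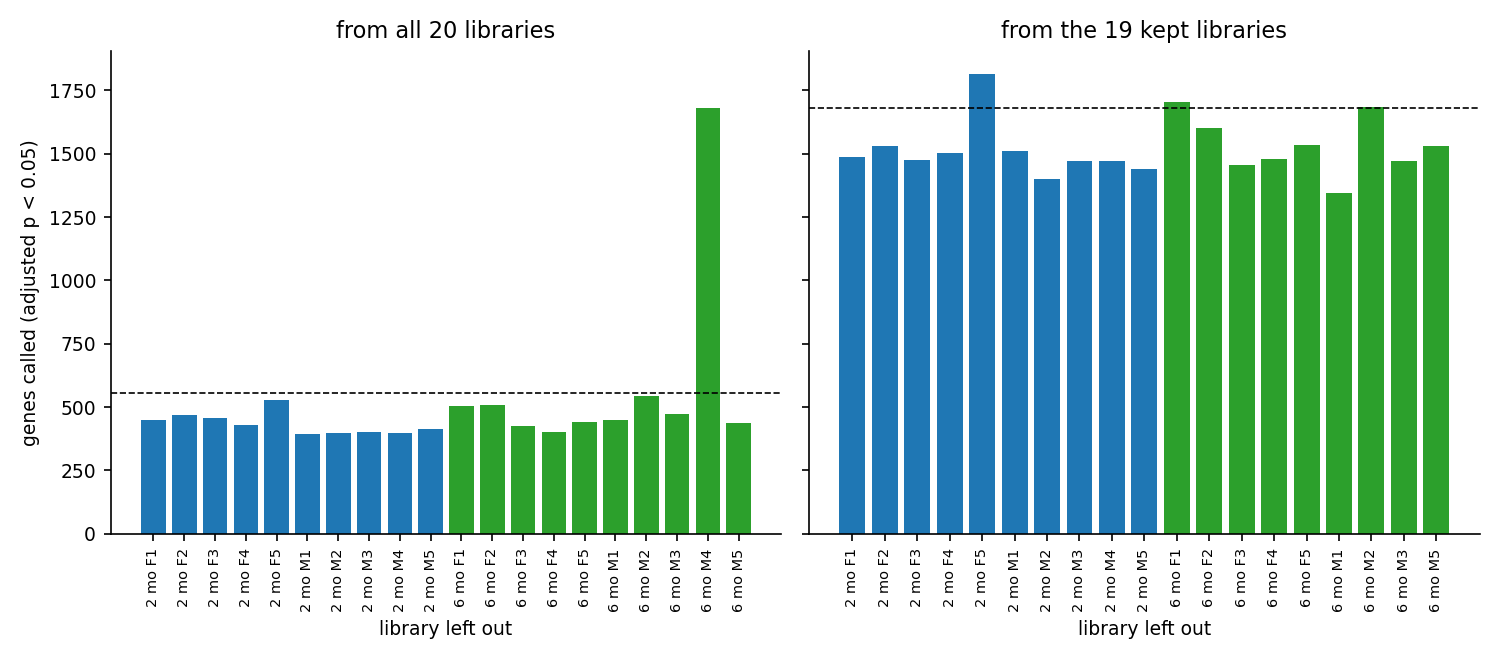
Genes called between 6 and 2 months in WT cortex when each library (horizontal axis, 2 months blue, 6 months green) is left out, from all 20 libraries (left) and from the 19 kept ones (right), with dashed lines at 557 and 1680. Leaving out male 4 of 6 months gives 1680 calls, and the other 19 omissions give 394 to 544.

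No other single library moved the count in this way. Leaving out each of the other 19 in turn from the full set gave 394 to 544 calls. Starting from the 19 libraries, leaving out a further one gave 1347 to 1816. Among the 14022 tested genes with at least 1 CPM in the 19 libraries, the 95% interval of the age difference lay inside 1.5-fold in 94.3%. With all 20 libraries it did so in 88.3% of the genes that reached 1 CPM in that fit. In the 19 libraries the age groups did not overlap at all in 153 genes (0.968%), all of them called, with 45 higher and 108 lower at 6 months. With all 20 libraries they did not overlap in 102 of 15756 tested genes, 27 higher and 75 lower, of which 92 were called.

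ENSRNOG00000009345 had the smallest p of all genes in the 19 libraries. Its level at 2 months was 114 CPM in the lowest library, 137 in the median and 149 in the highest, with a mean of 133 ± 12.1 (SD, n = 10). At 6 months it was 61.5, 70.8 and 85.3 CPM, with a mean of 71.1 ± 7.39 (SD, n = 9). The ages did not overlap, and male 4 lay inside the range of the other 6-month libraries. The log2 fold change was -0.90 ± 0.05 (SE), a fold of 0.537, with an adjusted p of 1.11e-11 in edgeR's quasi-likelihood test. Per length, the mean was 71.7 TPM at 2 months and 36.8 TPM over the 10 libraries of 6 months.

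ENSRNOG00000018950 was also lower at 6 months. It ran from 38.7 through a median of 43.7 to 46.4 CPM at 2 months and from 25.5 through 27.9 to 32.2 CPM in the 9 libraries of 6 months. The ages did not overlap, and male 4, at 35.2 CPM, was the highest library of 6 months. The log2 fold change was -0.57 ± 0.04 (SE, adjusted p = 2.98e-09 by edgeR).

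Of the genes that were higher at 6 months, ENSRNOG00000019161 had the smallest p. It ran from 23.9 through 25.97 to 28.2 CPM at 2 months and from 33.7 through 36.1 to 39.99 CPM in the 9 libraries of 6 months, with no overlap. Its log2 fold change was 0.47 ± 0.04 (SE, adjusted p = 1.28e-08 by edgeR). ENSRNOG00000003253 ran from 138 through 179 to 197 CPM at 2 months and from 273 through 299 to 357 CPM at 6 months. Male 4, at 561 CPM, was far above every other library, and the ages were apart with and without it. The log2 fold change was 0.78 ± 0.06 (SE, adjusted p = 2.31e-08 by edgeR) without male 4 and 0.89 ± 0.11 with it.

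The 4 identifiers were chosen by their p in WT cortex, so their values there are a description. Q130 cortex gives the same ages in other animals. There the log2 fold changes were -0.94 ± 0.05 for ENSRNOG00000009345, -0.48 ± 0.05 for ENSRNOG00000018950, 0.37 ± 0.04 for ENSRNOG00000019161 and 0.85 ± 0.06 for ENSRNOG00000003253 (SE), and edgeR called all 4, with a largest adjusted p of 8.51e-06. In WT cortex at 12 months, in batch 2, the medians were 68.3, 27.0, 37.9 and 345 CPM in the same order, so each stayed on the 6-month side of the 2-month range. ENSRNOG00000009345 also had the smallest p of all genes for the age difference in WT hippocampus, striatum and cerebellum, at log2 fold changes of -0.88, -1.23 and -1.12.

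**Figure D3:**
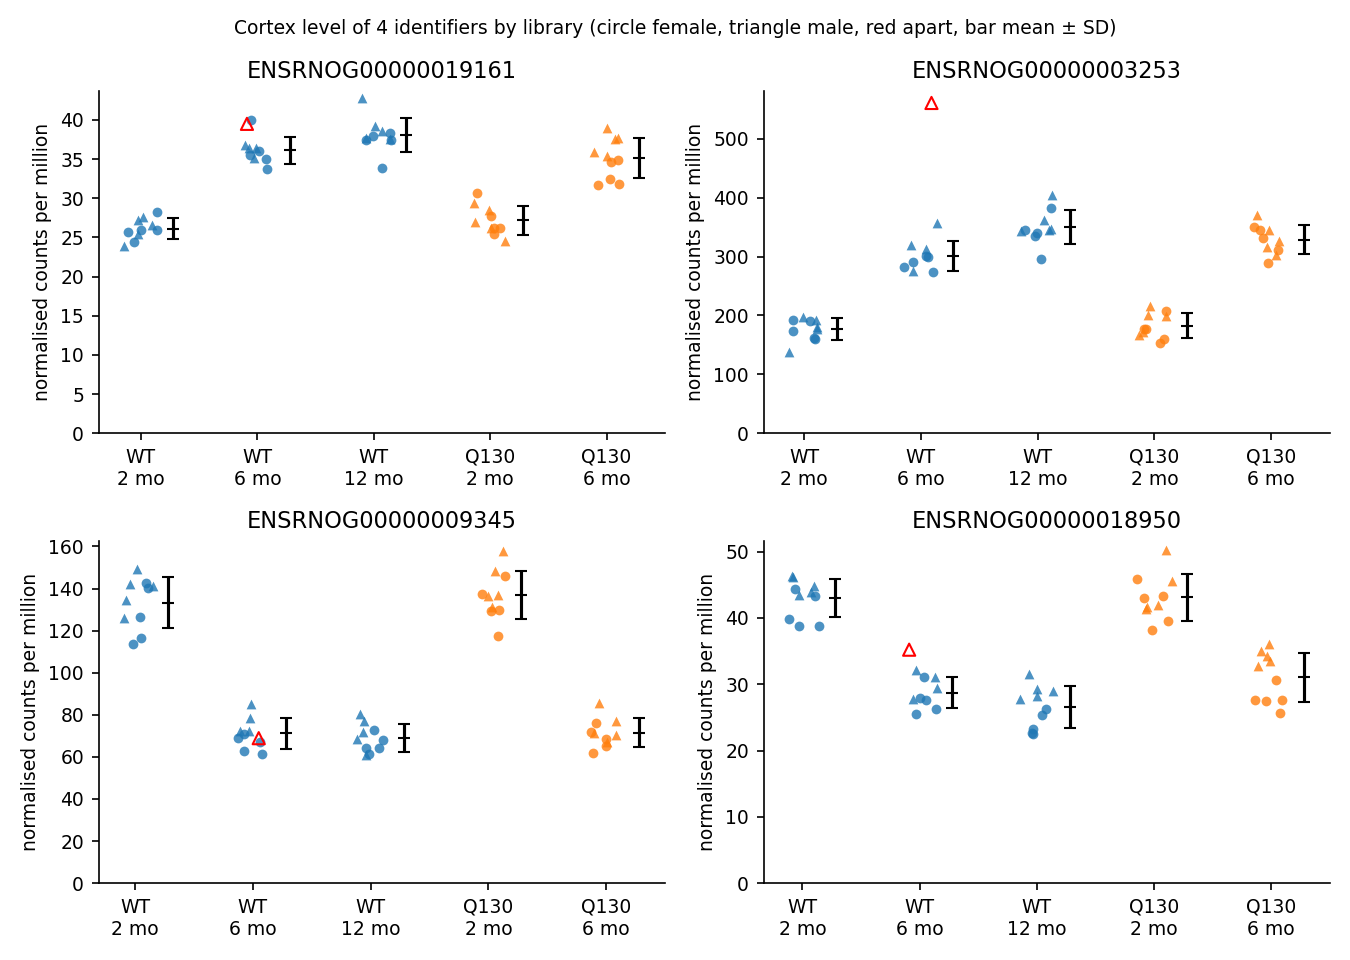
Normalised CPM of 4 identifiers in each cortical library, WT at 2, 6 and 12 months (blue) and Q130 at 2 and 6 months (orange), circles for females and triangles for males, with mean ± SD of the libraries not apart. Male 4 of WT cortex at 6 months (red outline) lies at 561 CPM for ENSRNOG00000003253.

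The largest differences belonged to weakly expressed genes. Of the 40 called genes beyond 2-fold, 24 were higher and 16 lower at 6 months. Their median level was 0.935 CPM among the higher and 0.557 CPM among the lower, and 10 of the 24 and 4 of the 16 reached 1 CPM. The extreme log2 fold changes were 2.15 and -4.23, the latter in a gene at 0.840 CPM. In Q130 cortex 21 of the 24 higher genes were tested, and all 21 were higher there too, 15 of them called. Of the 16 lower genes, 15 were tested, 14 were lower and 9 called. Over all genes tested in both genotypes 68.6% had the same direction, and 8.74% of genes tested in Q130 cortex were called. The higher genes had a median log2 fold change of 1.31 in WT and, where tested, 1.12 in Q130. For the lower genes it was -1.16 and -0.73. The WT estimates chose these genes.

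The share of genes called went with level and length. In 5 equal bins from the lowest to the highest level, 5.50%, 9.58%, 11.04%, 13.4% and 13.6% of genes were called. The median size of a called log2 difference was 0.70 in the lowest bin and 0.15 in the highest. By length the share called was 6.74% in the shortest bin and 13.6% in the longest. The median log2 fold change of all genes in the length bins lay between 0.00 and 0.01 without male 4. With male 4 it ran from 0.09 in the shortest bin to -0.04 in the longest.

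The same ages were then compared in the cortex of Q130 rats, which share no library with the WT animals. Some WT and Q130 animals of an age share the first part of their identifier, whose meaning the labels do not give. In Q130 cortex 1378 of 15759 genes were called (8.74%), 607 higher and 771 lower at 6 months. Of the 606 genes of the higher group that were tested in WT cortex, 577 had a higher estimate at 6 months and 282 were called higher, with none called lower. Their median log2 fold change in WT was 0.19. Of the 768 tested genes of the lower group, 732 had a lower estimate and 431 were called lower, with none called higher, and the median was -0.16. Over all tested genes 51.4% had a higher estimate, 4.81% were called higher and 5.81% lower, and the median was 0.00. With male 4 kept in, 145 genes of the higher group were called higher and 189 of the lower group lower, against 1.67% and 1.87% of all tested genes.

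Read from the WT side, 1676 of the 1680 called genes were tested in Q130 cortex. The direction was the same in 1580 of them (94.3%), against 68.6% of the 15677 genes tested in both. In all 713 genes were called in both genotypes in the same direction, 42.4% of the WT calls and 51.7% of the Q130 calls, and 0 in opposite directions. Across the 15677 genes the log2 fold changes had a Pearson correlation of 0.59. That is a description, since genes are not independent replicates.

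**Figure D4:**
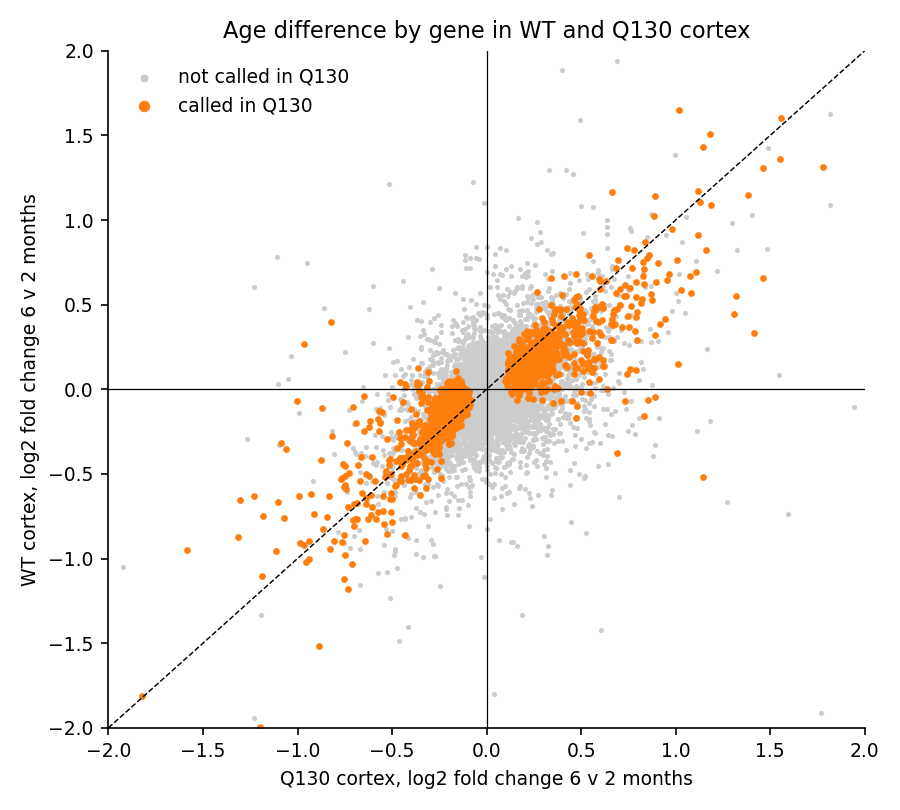
Log2 fold change between 6 and 2 months for each gene in Q130 cortex (horizontal) and WT cortex without male 4 (vertical), with genes called in Q130 in orange and the line of equal change dashed. Of the orange points 577 of 606 called higher and 732 of 768 called lower in Q130 lie on the same side in WT, and 20 genes lie outside the plotted range of 2 log2 units.

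The difference between the genotypes in the age effect was tested as an interaction over 39 cortical libraries. No gene was called (0 of 16080, 0%) by edgeR's quasi-likelihood test, nor by limma-voom. At an unadjusted p under 0.05 edgeR had 992 genes and limma-voom 1017, a level that chance alone passes in about 1 in 20. The smallest adjusted p by edgeR was 0.278. Of the 1680 genes called in WT, the 95% interval of the genotype difference lay inside 1.5-fold in 87.0%. For the rest the interval reached beyond 1.5-fold.

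The sexes were compared in the same way. The interaction of age and sex called 0 of 16032 genes (0%) with edgeR's quasi-likelihood test and 0 with limma-voom, with 635 and 625 genes at an unadjusted p under 0.05. Females alone, 5 at each age, gave 277 of 15609 calls (1.77%), 85 higher and 192 lower at 6 months. Males alone, 5 at 2 months and 4 at 6 months, gave 515 of 15602 (3.3%), 226 higher and 289 lower. Of the 277 genes called in females, 274 had the same direction in males, and 499 of the 512 male calls tested in females did so there. Both sexes called 141 genes in the same direction, beside 1.77% of all tested genes called in females and 3.3% in males. The share of all tested genes with the same direction in both sexes was not computed.

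Genes that changed with age in the other tissues of Q130 rats were followed in WT cortex. These groups came from comparisons in which 4.25% of genes were called in hippocampus, 12.4% in striatum and 15.1% in cerebellum. Of 284 tested genes higher at 6 months in Q130 hippocampus, 245 had a higher estimate in WT cortex and 123 were called higher, and of 383 lower genes 362 had a lower estimate and 206 were called. For the striatum 833 of 1075 higher genes and 704 of 885 lower genes went the same way, with 244 and 250 called. For the cerebellum 904 of 1088 and 1015 of 1254 did so, with 253 and 365 called. Some genes were called in the opposite direction. In the higher and then the lower group these were 1 and 1 for hippocampus, 22 and 12 for striatum and 7 and 8 for cerebellum. Over all genes tested in WT cortex 4.81% were called higher and 5.81% lower. With male 4 kept in, the called counts, higher then lower, were 73 and 112 for the hippocampal groups, 109 and 94 for the striatal and 101 and 157 for the cerebellar, against 1.67% and 1.87% of all genes.

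A small set changed in every Q130 tissue. In WT cortex 51 of the 52 genes higher in all 4 Q130 tissues had a higher estimate, and 41 were called, with a median log2 fold change of 0.43. Of the 78 lower genes 75 had a lower estimate and 70 were called, with a median of -0.36. These counts stand beside 4.81% called higher and 5.81% called lower over all genes. With male 4 kept in they were 30 and 51, beside 1.67% and 1.87% of all genes. In WT hippocampus, striatum and cerebellum the medians of the higher set were 0.42, 0.44 and 0.32, and those of the lower set -0.31, -0.50 and -0.37. At the other end were genes called in Q130 cortex and in no other Q130 tissue. In WT cortex 206 of 223 of the higher ones had a higher estimate and 56 were called, and 269 of 292 of the lower ones had a lower estimate and 114 were called. With male 4 kept in, 22 and 46 were called, beside 1.67% and 1.87% of all genes. The medians were 0.15 and -0.13 in WT cortex, against 0.10 and -0.05 in hippocampus, 0.08 and -0.06 in striatum and 0.07 and -0.06 in cerebellum.

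The groups called in Q130 cortex were summarised in each library as an age contrast, the mean log2 CPM of the 607 higher genes less that of 763 lower genes, set to 0 at the mean of the WT libraries of 2 months. WT cortex libraries of 2 months ran from -0.11 to 0.13, and the 9 of 6 months from 0.39 to 0.60, with means of 0.00 ± 0.07 and 0.49 ± 0.06 (SD). The ages did not overlap, and male 4 lay between them at 0.38. Higher and lower genes moved by similar amounts at 6 months, with means of 0.26 and -0.23. WT cortex at 12 months ran from 0.50 to 0.67, overlapping the 6-month range. Q130 cortex ran from -0.19 to 0.01 at 2 months and from 0.48 to 0.70 at 6 months, values that chose the genes and are a description. The same genes in WT tissues other than cortex, relative to their own 2-month libraries, ran at 6 months from 0.29 to 0.43 in hippocampus, 0.32 to 0.48 in striatum and 0.25 to 0.38 in cerebellum.

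**Figure D5:**
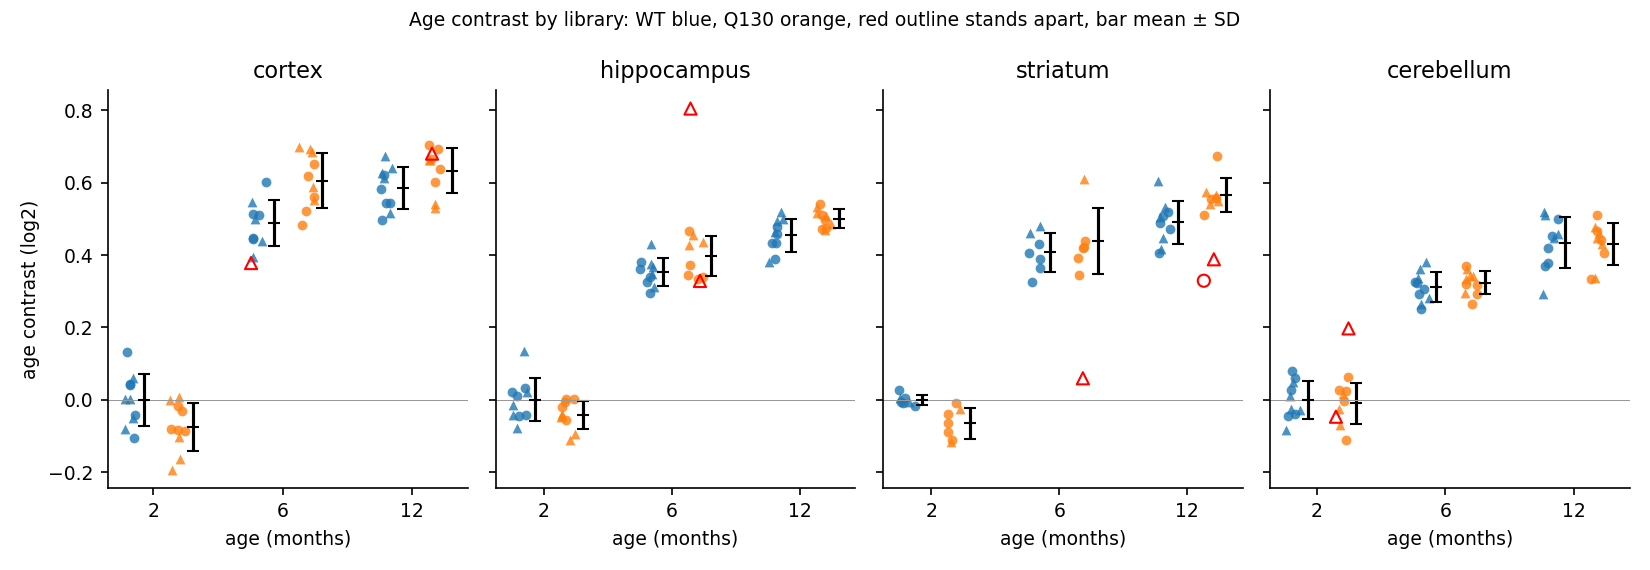
Age contrast (vertical, log2 units) of every library by tissue and age, WT blue and Q130 orange, circles for females and triangles for males, red outlines for libraries that stand apart, bars for mean ± SD of the others. WT cortex libraries of 2 months lie between -0.11 and 0.13 and the 9 kept ones of 6 months between 0.39 and 0.60.

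Whether the age difference in cortex differed from that in the other tissues of the same WT animals was tested with the animal as a block. The difference was called in 664 of 16816 genes (3.95%) against hippocampus in 19 animals, in 170 of 16771 (1.01%) against striatum in 13 animals and in 962 of 16806 (5.72%) against cerebellum in 19 animals. In Q130 animals the difference between the tissues had the same sign in 553 of 661 measured genes (83.7%) for hippocampus, 147 of 169 (87.0%) for striatum and 695 of 941 (73.9%) for cerebellum. Over all tested genes the shares were 57.3%, 61.0% and 51.1%. In the WT fits of each tissue, the age difference was larger in size in cortex in 305 of 661 of these genes for hippocampus. It was so in 32 of 169 for striatum and 305 of 941 for cerebellum. The median sizes in cortex and the other tissue were 0.11 and 0.13, 0.12 and 0.31, and 0.10 and 0.19 log2 units. The share with the larger size in cortex was not computed over all genes.

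The interaction counts depended on the animal of male 4. With its libraries kept in, 21 genes were called against hippocampus, 19 against striatum and 401 against cerebellum. Some of the named identifiers passed this test and some did not. The decrease of ENSRNOG00000009345 was smaller in WT cortex than in WT striatum by 0.26 ± 0.05 log2 units (SE, adjusted p = 0.0253 by edgeR). Its difference from hippocampus was -0.02 ± 0.08. In Q130 animals its log2 fold change was -0.94 in cortex and -0.96 in striatum. The identifier was chosen by its p in the same WT cortex libraries.

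Genes that mark a tissue were chosen from Q130 libraries of 2 months, at least 4-fold above each other tissue. More cortex-enriched genes were called lower than higher in WT cortex at 6 months. Of 54 genes 39 had a lower estimate, 16 were called lower and 2 higher, with a median log2 fold change of -0.15, beside 5.81% called lower and 4.81% higher over all genes. With male 4 kept in, 7 were called lower and 0 higher by edgeR, beside 1.87% and 1.67% of all genes. Their mean level ran from 2.81 to 2.93 log2 CPM at 2 months and from 2.58 to 2.86 at 6 months, so the ages overlapped in part, and male 4 was at 2.69. Choosing genes by a high level at 2 months can favour genes that are lower at 6 months in both genotypes. The choice was therefore also made at 6 months, after seeing the data. Of 51 cortex-enriched genes chosen so, 36 had a lower estimate in the 19 libraries. Of these 51, 15 were called lower and 2 higher, with a median of -0.14. In whole tissue, fewer cells of a type and less RNA per cell cannot be told apart.

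For genes enriched in the other tissues, the shares called in the 19 libraries were at most 5.88% higher and 6.02% lower, beside 4.81% and 5.81% over all genes. Of 34 tested hippocampus-enriched genes 27 had a higher estimate, with 2 called higher and 1 lower and a median of 0.11. Striatum-enriched genes had a higher estimate in 54 of 92, with 5 called higher and 2 lower, and cerebellum-enriched genes in 117 of 216, with 8 called higher and 13 lower. With male 4 kept in, 5 of 212 cerebellum-enriched genes were called higher (2.36%) and 9 lower (4.25%), beside 1.67% and 1.87% of all genes. In that fit 1 of 34 hippocampus-enriched genes was called higher and 1 lower, and of 91 striatum-enriched genes 2 were called higher and 1 lower. The mean level of the cerebellum-enriched genes ran from 0.49 to 0.97 log2 CPM at 2 months, with female 2 highest, and from 0.41 to 1.10 in the 9 libraries of 6 months, again with a female 2 highest. Male 4 of 6 months was below those 9, at 0.34, and also for the hippocampus-enriched genes, at -0.53 against -0.39 to 0.07. The part of tissue composition in the age differences was not tested.

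Animals of 1 age and sex differed among themselves by a median SD of 0.11 log2 units per gene at 2 months and 0.12 at 6 months, over 14022 genes, and the SD was larger at 6 months in 58.8% of them. The first part of the animal identifiers did not overlap between the ages in WT, so what differs between the sets of that part used at each age cannot be told apart from age. Several values of it lie within each age. With that part as a random block, limma-voom estimated a correlation of 0.054 between animals that share it in the 19 libraries and -0.081 in all 20, and called 1541 and 689 genes.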

How the data were processed

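Per the labels' protocols, total RNA came from flash-frozen tissue by a Qiagen kit, and subfractions were enriched before Illumina library preparation. The aligner, the counter and the build were not given in the sources used here. Expected counts per gene were deposited, which per the file's values are not all whole numbers, and were rounded for the tests. A deposited table named FPKM has the same total in every column, so its values are TPM. It served only for gene length and for TPM levels of 4 identifiers.

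Genes were filtered with filterByExpr, normalised by TMM and tested with edgeR 4.0.16 (quasi-likelihood, robust, R 4.3.3) with sex as a covariate, with calls at a p under 0.05 after Benjamini-Hochberg adjustment. Standard errors were derived from the log2 fold change and its F statistic. For log2 CPM the prior count was 2 and the minimum mean count 10. limma 3.58.1 and DESeq2 1.42.0 gave alternatives. The scripts were tested on simulated data. Replicates were separate animals. Replicate numbers did not pair the ages: 2 of 10 same-number pairs had deviations correlated over 0.1, female 2 at 0.36 and male 1 at 0.14. No library pair of a group agreed within counting noise (median squared difference at least 3.12 times it).

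24 striatal columns match more than 1 label and were not used, so striatum had fewer animals. Identifiers were named by the rule of the 2 smallest p in each direction among called genes with at least 1 CPM. Lists and markers written as gene symbols were not tested, as no identifier had a symbol, so the tissue label could not be checked against markers. The members and lists were chosen with earlier results of these data known. Groups from Q130 tissues other than cortex were chosen after seeing the data.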

Additional observations from a re-analysis of the deposited data

Results flagged for a closer look

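Outlying libraries were sought by Dixon's criterion in 41 group measurements, of which 4 were past its 95% value, and chance alone passes about 1 in 20 groups. WT cortex 6 months male 4 was far below the rest of its group in median correlation, at 0.918, and far above it for ENSRNOG00000003253, at 561 CPM. WT cortex 2 months female 2 was high in the mean level of cerebellum-enriched genes, at 0.973 log2 CPM. WT cortex 2 months male 4, another animal, was high in striatum-enriched genes, at 0.932 log2 CPM.

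Age differences that differed between WT cortex and another tissue by the interaction test numbered 664 for hippocampus, 170 for striatum and 962 for cerebellum. All named identifiers were chosen by their p in the same WT cortex libraries, so their differences between WT tissues are a description. Among them, the log2 age difference of ENSRNOG00000019161 was larger in WT cortex than in hippocampus by 0.16 and than in cerebellum by 0.25. In Q130 animals its log2 fold change was 0.37 in cortex, 0.23 in hippocampus and 0.22 in cerebellum. The age differences of ENSRNOG00000009345 and ENSRNOG00000018950, which fell in each tissue, were 0.26 and 0.29 less negative in WT cortex than in WT striatum. In Q130 animals these 2 age differences were -0.94 and -0.48 in cortex and -0.96 and -0.58 in striatum.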

How the results depend on the processing

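With all 20 libraries, the 557 calls became 937 with DESeq2, 1840 with limma-voom and library quality weights, 1231 in a fit over WT and Q130 cortex, 277 in females and 1 in males. Leaving out each library gave 394 to 1680. With 19 libraries, 1680 became 277 in females and 515 in males, with fewer animals in each, and leaving out each library gave 1347 to 1816. The other alternatives for these 2 comparisons, apart from the replicate block, stayed within 1.5 times of 557 or 1680. With the replicate block the count was 300 with all 20 libraries and 1533 with 19, and the numbers do not pair the animals. Of the tissue interactions, all libraries gave 21 for hippocampus, 19 for striatum and 401 for cerebellum, in place of 664, 170 and 962. The causes were not tested. The 4 identifiers kept direction and call in all 32 alternatives without male 4. With it, 3 of the 4 lost the call in males alone, with a largest adjusted p of 0.0994 by edgeR. Of 32 counts of group members called, 22 moved by over 1.5 times with all libraries and 1 with DESeq2. Over all tested genes the shares called higher and lower were 4.81% and 5.81% with 19 libraries and 1.67% and 1.87% with all. Choosing tissue-enriched genes at 6 months, added after seeing the data, moved 3 of 8 such counts.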
